A study of Mus musculus with 12 samples.

Results

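The comparison described here is between resting livers of control and Ire1α null mice, and it uses 6 of the 12 arrays of the study. The arrays were chosen by sample title: 3 titled Fe+CRE+ without tunicamycin were control livers, and 3 titled Fe-CRE+ without tunicamycin were null livers. All mice were of the C57Bl/6J background and 3 months old, had received only a dextrose vehicle by intraperitoneal injection, and gave their livers 8 hours later. Both genotypes carry the CRE+ label, so the controls share it with the null mice. The null mice are called conditional in the labels, and the promoter that drives Cre, the removed part of the gene and the targeted cells are not stated in these sources. The labels name the replicates biological and do not give the sex of the mice. The other 6 arrays, from livers given tunicamycin, entered the fit through the shared estimate of the spread. They also took part in the normalization between arrays, the filter on dim probe sets and the choice of each gene's probe set. Their levels were not part of the genotype difference itself.

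The Ern1 gene encodes IRE1α, which spans the membrane of the endoplasmic reticulum (ER), senses unfolded protein there and has kinase and RNase domains. Its RNase splices the Xbp1 transcript, and the resulting transcription factor drives genes for ER chaperones, translocation of proteins into the ER, ER-associated degradation and, in liver, lipid synthesis. The same RNase can also cut other transcripts at the ER membrane. The liver makes most plasma proteins, so its ER is loaded in the resting state, and the kinase PERK and the transcription factor ATF6 sense unfolded protein beside IRE1α.

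Levels are log2(intensity + 16) after quantile normalization, and a difference is the null mean minus the control mean on that scale, so that a difference of 1 is 2-fold. Errors after ± are limma standard errors, n = 3 arrays in each group, and intervals are 95% limma intervals. The trimmed mean intensity of the 6 arrays lay between 227 and 260. Correlations over genes were 0.972 to 0.982 between control arrays, 0.979 to 0.984 between null arrays and 0.968 to 0.990 between genotypes. Control replicate 1 and null replicate 1 lay at opposite ends of the first principal component (34.6% of the variance, -31.7 and 30.7), and the other 4 arrays of both genotypes lay between them. The 5' to 3' ratio of the Gapdh controls, a measure of RNA integrity that is lower in degraded RNA, was 0.774, 0.352 and 0.459 in control replicates 1 to 3 and 0.181, 0.642 and 0.293 in null replicates 1 to 3. The genotypes differed in it by -0.156, less than the spread between replicates (two-sided exact permutation p = 0.5, smallest possible 0.1). Control replicate 1 and null replicate 1, at the ends of the first principal component, also had the highest and the lowest Gapdh ratio. The part of RNA integrity in that component was not tested. The actin ratio ordered the arrays otherwise. It was 0.454, 0.719 and 1.1 in control and 0.571, 0.296 and 0.633 in null replicates 1 to 3. Its genotype difference was -0.257 (two-sided exact permutation p = 0.4).

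The targeted transcript was read on all 6 arrays. The brightest Ern1 probe set read 10.87, 10.50 and 10.31 in control replicates 1 to 3 and 10.76, 10.24 and 10.28 in null replicates 1 to 3. The groups overlapped, and the difference was -0.13 ± 0.245 (interval -0.67 to 0.40). The other 4 Ern1 probe sets differed by -0.24, -0.23, 0.00 and -0.07, each with overlapping groups. Since the deleted part is not given, a probe set may lie outside it, and these values check nothing about the labels.

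The brightest genes of resting liver were largely the same in both genotypes, and functions of the hepatocyte were well represented among them. Brightness depends on the probes as well as on the transcript, so genes were not ranked against each other. Instead, the members of each gene list were counted among the brightest 5% of the 14568 genes tested, which is 728 genes in each genotype. The genotypes shared 690 of these 728 genes. Of the brightest genes, 301 in control and 294 in null livers stood in a function list, which is 41.3% and 40.4%, against 4.55% of all genes tested. The lists were chosen with earlier results of these data known, and many name functions of the liver. The excess over 4.55% was therefore largely set in advance. The 10 brightest genes, with no order between them, were Alb (albumin), Apoa1 and Apoa2 (the main proteins of high-density lipoprotein), Ttr (a thyroid hormone and retinol carrier), Serpina1c (an α1-antitrypsin), Fabp1 (the liver fatty acid binding protein), Cps1 (the entry enzyme of the urea cycle), Bhmt (methionine synthesis from betaine), Hpd (tyrosine breakdown) and Uqcrb (a subunit of respiratory complex III).

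Most measured genes of energy metabolism and protein synthesis were among the brightest 5%. Of 43 measured genes of the mitochondrial respiratory chain, 39 in control and 38 in null livers were among them, and of 31 cytosolic ribosomal proteins 27 in each. The urea cycle and amino acid breakdown list had 20 of 24 members there in each genotype. Fatty acid oxidation and ketogenesis had 14 of 24 in each. Glucose and glycogen metabolism had 7 in control and 8 in null livers of 17. The order in which the lists are given here is by function and not by share.

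Lists of secreted plasma proteins also had many members there. Members among the brightest genes were 12 of 14 albumin and plasma carrier proteins, 10 of 11 plasma serine protease inhibitors, 14 of 19 coagulation genes and 10 of 17 complement genes, with the same counts in each genotype. Apolipoproteins and lipoprotein handling had 12 in control and 13 in null livers of 17. Detoxification had 26 of 39 conjugation and oxidation genes in each genotype, and 19 cytochromes P450 in control and 17 in null livers of 32. Bile acid synthesis and transport had 11 of 22 in each.

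The tissue label was borne by its markers. All 9 measured hepatocyte markers were among the brightest 5% in both genotypes, and the mean of these 9 over an array varied by 0.04 between the 6 arrays. No measured marker of Kupffer cells (14), endothelial cells (12), stellate cells and fibroblasts (12), lymphocytes (11), bile duct cells (5), pancreas (4) or kidney (14) reached the brightest 5%. Of 4 measured erythroid markers 1 did so in each genotype, the globin gene Hbb-b2 at a mean level of 12.97. In bulk liver, fewer cells of a type and less RNA per cell cannot be told apart. Xist, transcribed from the inactive X chromosome of females, read 11.82 to 12.55 on all 6 arrays at the brightest of its 3 probe sets, and the probe sets of the Y-linked genes Kdm5d, Uty and Eif2s3y read 4.15 to 5.50 on all of them. The other Xist probe sets read 6.05 to 7.68, except for 10.84 at 1 of them in null replicate 2.

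The spread between replicates was similar in the genotypes for most genes. The median SD of a gene over 3 arrays was 0.221 in control and 0.212 in null livers, and in the brightest tertile of genes it was 0.169 and 0.184. The SD was larger in null livers for 7034 genes (48.3%). SDs over 0.5 were found for 8.66% of genes in control and 5.42% in null livers, and SDs over 1 for 100 and 48 genes. With 1 array left out, the median from the 2 others was 0.173 to 0.185 in control and 0.160 to 0.196 in null livers.

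Among the lists with at least 14 measured genes, the least variable were plasma carrier proteins, with a median pooled SD of 0.0649, the respiratory chain (0.0805), apolipoproteins (0.0879) and coagulation (0.0945). Their median control levels were 13.21, 12.39, 12.51 and 12.63, against 7.78 over all genes. Readings near saturation compress differences and with them the spread. Proliferation genes (0.452), liver genes that differ between the sexes (0.380), Kupffer cell markers (0.366) and cholesterol synthesis (0.336) varied most, against 0.239 over all genes. Cholesterol synthesis genes had a median SD of 0.160 in control and 0.438 in null livers.

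Among the brighter genes with the largest spread, 1 array could lie far from the other 5. Cyp2c39, a cytochrome P450, read 8.15, 12.41 and 12.36 in control replicates 1 to 3 and 12.30, 12.23 and 12.22 in null replicates 1 to 3 (pooled SD 1.73). Only control replicate 1 lay apart, and without it the difference went from 1.28 to -0.13. Hao2, a peroxisomal hydroxyacid oxidase, read 10.23, 9.09 and 7.13 in control and 9.91, 8.25 and 6.70 in null livers, so that each genotype spanned most of the range (pooled SD 1.59). Sult1e1 (an estrogen sulfotransferase), Rgs16 (a regulator of G protein signalling), Agmo (an ether lipid oxygenase) and the immediate-early gene Egr1 had pooled SDs of 1.58, 1.34, 1.29 and 1.22.

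No gene passed the test for a genotype difference. With limma and Benjamini-Hochberg adjustment over all 14568 genes, 0 (0% of genes) had an adjusted p under 0.05, and the smallest adjusted p was 0.973. At an unadjusted p under 0.05 there were 597 genes (4.1%), of which 242 (1.66%) lay higher and 355 (2.44%) lower in null livers. In the values as deposited, without normalization between arrays, this split was 129 higher and 331 lower. The 3 null arrays did not overlap the 3 control arrays for 1188 genes (8.15%), 546 higher (3.75%) and 642 lower (4.41%). A fit of the 6 vehicle arrays alone called 1 gene (0.00686%), Ctse, and a fit with the replicate number as a block called 1, Cyp4a12a.

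Measured differences were small for nearly all genes. The median difference was 0, and the range from the 1st to the 99th percentile of genes was -0.65 to 0.59. A measured difference of 2-fold or more was found for 48 genes (0.329%), 27 higher and 21 lower in null livers. The plot of difference against level shows the extremes, Cyp4a12a at 3.14 and Ctse at -3.03.

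**Figure D1:**
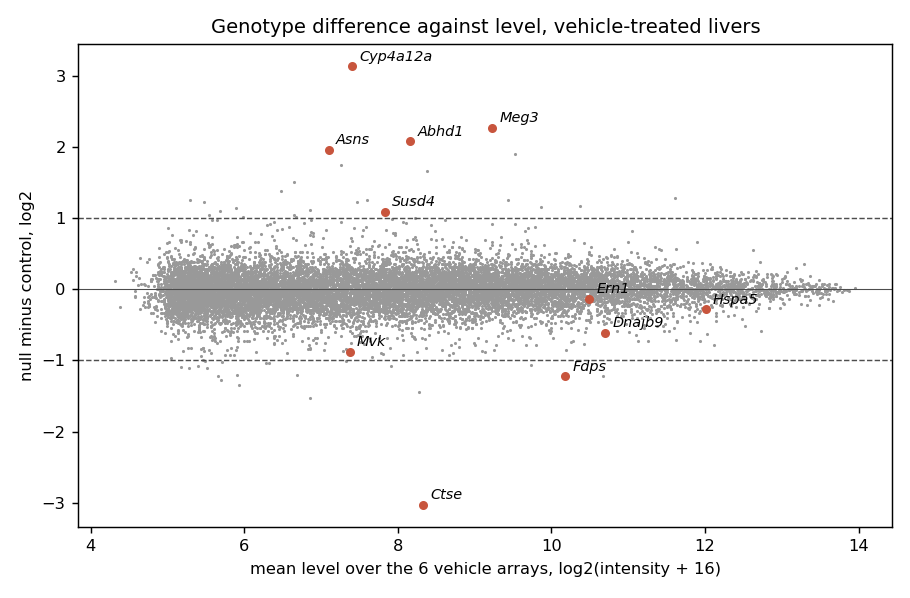
Genotype difference (null minus control, log2) of each of 14568 genes against its mean level over the 6 vehicle arrays, log2(intensity + 16), with 2-fold marked by dashed lines and 11 genes named in red. Most genes lie within 2-fold at all levels, 48 lie at or beyond it, and none of the genes shown was called.

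The intervals show how large a genotype effect could have gone unseen. The median half-width of the 95% interval was 0.430, and it ran from 0.286 to 0.835 between the 5th and 95th percentile of genes. It was 0.465 in the dimmest, 0.450 in the middle and 0.377 in the brightest tertile of genes. The whole interval lay within 2-fold for 13120 genes (90.1%), and within 1.5-fold for 7147 (49.1%). For 115 genes it reached 4-fold. Paired one-sided limma tests against a 2-fold difference in each direction, with Benjamini-Hochberg adjustment, placed 13613 genes (93.4%) within 2-fold. This count was 12748 without control replicate 2, the lowest over the alternatives that left out an array.

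Whether a true difference would have been called depended on how many genes differed. For 1 gene tested alone, the true difference called with a probability of 80% had a median of 0.60 over genes, or 1.52-fold. If 100 genes passed together, the median was 1.19, or 2.28-fold, and 26.7% of genes would have shown a 2-fold difference and 91.9% a 4-fold one with that probability. If 1 gene differed alone, the correction raised the median to 1.88, or 3.69-fold. In that case no gene's 2-fold difference reached that probability, and a 4-fold one did for 57.6% of genes, 73.2% in the brightest tertile and 47.4% in the dimmest. Readings near the floor and near saturation compress true differences, so these limits hold for the measured scale.

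**Figure D2:**
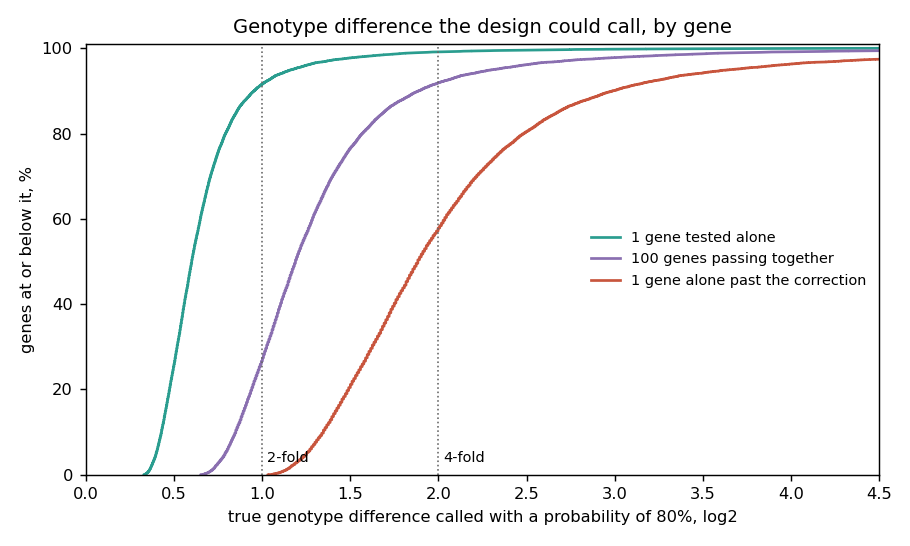
Cumulative share of the 14568 genes (%) against the true genotype difference (log2) that the limma fit would call with a probability of 80%, for 1 gene tested alone, for 100 genes passing together and for 1 gene alone past the correction. At 2-fold the curves stand at 91.5%, 26.7% and 0% of genes, and at 4-fold at 99.1%, 91.9% and 57.6%.

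The responses to tunicamycin in control livers give a scale for these limits, with the caution that they share the control vehicle arrays. Of 3636 genes called there (limma, Benjamini-Hochberg), 3227 (88.8%) had a resting genotype interval that excluded a difference as large as that response, whose median size was 0.87. Hspa5 and Ddit3, for example, differed by 1.48 ± 0.192 and 6.01 ± 0.239 with tunicamycin in control livers. The share of 88.8% was largely set in advance. A gene has the same standard error in both contrasts, and a called response had to exceed the half-width of its resting interval. The share is therefore no result about the resting livers.

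Sensors and transcription factors of the unfolded protein response had a median difference of -0.17 over 12 genes, against 0.00 over all genes tested. Xbp1 read 12.09, 11.83 and 11.93 in control and 11.82, 12.07 and 11.67 in null livers, with a difference of -0.10 ± 0.137 (interval -0.40 to 0.20). These groups overlapped. Another Xbp1 probe set, used when probe sets with possible cross-hybridization were left out, also overlapped and differed by -0.77 ± 0.432 (limma, adjusted p = 0.981). Whether a probe set separates spliced from unspliced Xbp1 is not given in the annotation used here. Atf4, the factor translated when PERK is active, lay lower in every null array than in any control array, by -0.29 ± 0.141. Ddit3, which encodes the stress factor CHOP, read 7.34, 7.31 and 7.44 in control and 8.48, 8.16 and 7.26 in null livers. Null replicates 1 and 2 were above all controls and null replicate 3 was below them. Its difference of 0.61 ± 0.239 (limma, adjusted p = 0.988) went to 0.35 without null replicate 1 and to 0.96 without null replicate 3.

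**Figure D3:**
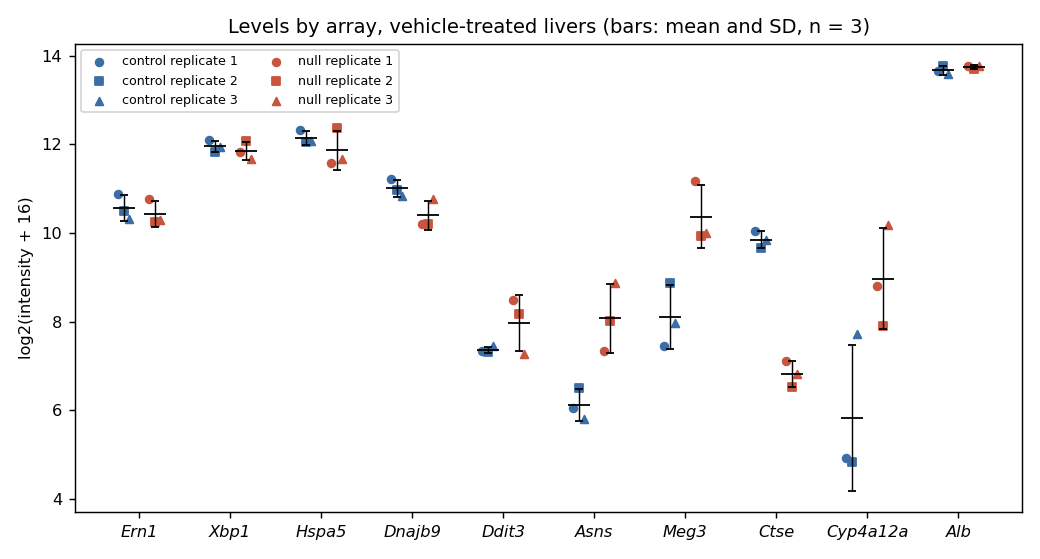
Levels, log2(intensity + 16), of 10 genes in each of the 3 control (blue) and 3 null (red) vehicle livers, with the mean and SD of each group. Ern1, Xbp1, Hspa5 and Alb overlap between genotypes, whereas Asns, Meg3 and Cyp4a12a lie higher and Ctse and Dnajb9 lower in all 3 null arrays; none was called.

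ER chaperones and folding enzymes had a slightly negative median difference, and none passed the test. Of 22 measured members 17 had a negative difference, with a median of -0.21 against 0.00 over all genes. The mean of the 22 members, relative to all 6 arrays, was 0.24, -0.05 and 0.15 in control replicates 1 to 3. It was -0.24, 0.04 and -0.15 in null replicates 1 to 3, so these means overlapped between the genotypes. In 4 members the null arrays lay below all control arrays (against 4.41% of all genes), and 3 had an unadjusted p under 0.05 in that direction, against 2.44%. Dnajb9, an HSP40 cochaperone that is a known XBP1 target, read 11.22, 10.96 and 10.83 in control and 10.21, 10.20 and 10.77 in null livers. Its groups did not overlap, and the difference was -0.61 ± 0.256 (interval -1.17 to -0.05). P4hb, a protein disulfide isomerase, read 12.68, 12.63 and 12.76 in control and 12.22, 12.53 and 12.06 in null livers, a difference of -0.42 ± 0.140 without overlap.

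The abundant chaperones of the ER lumen differed by small amounts. Hspa5, which encodes BiP, read 12.33, 12.04 and 12.07 in control and 11.57, 12.37 and 11.66 in null livers. The highest reading was a null one, so the groups overlapped, and the difference was -0.28 ± 0.192 (interval -0.70 to 0.14). It was -0.13 without null replicate 1 and -0.53 without null replicate 2. Hsp90b1, the ER form of HSP90, read 12.84, 12.80 and 12.82 in control and 12.70, 12.74 and 12.77 in null livers. Its groups did not overlap, the difference was -0.08 ± 0.110 (interval -0.32 to 0.16), and it was -0.66 with the mean of the gene's probe sets.

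Some members of this list varied with the Gapdh 5' to 3' ratio across the arrays, whereas the actin ratio ordered the arrays otherwise. Manf, a secreted ER stress protein, read 10.94, 9.47 and 10.16 in control and 8.61, 10.27 and 9.36 in null livers, which is the same order of arrays as that of the Gapdh 5' to 3' ratio. Its difference of -0.78 ± 0.389 was -0.27 with that ratio as a covariate, -0.37 without null replicate 1, -0.40 without control replicate 1 and -1.21 without null replicate 2. Pdia6, a protein disulfide isomerase, went from -0.69 ± 0.281 to -0.38 with the covariate and -0.43 without null replicate 1, and the median of the list from -0.21 to -0.13. Dnajb9 went from -0.61 to -0.60 and stayed without overlap.

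Promoters of this list are shown because the factors activated in ER stress bind a known element in them. In the RefSeq promoter table for GRCm38.p6, which covers 250 bases before and 50 after the start of a gene, 20 of the 22 genes had an entry. The ER stress response element was searched on both strands as CCAAT and CCACG with 9 bases of any kind between them, and 8 of the 20 held it (40%), against 0.146% of the 11657 tested genes with an entry. The 250 bases before the starts of Hspa5 (chr2:34771840-34772089, + strand) and Pdia6 (chr12:17266339-17266588, + strand) follow, 5′ to 3′, with the match in capitals. The matches begin at positions -65 and -98 from the start.
Hspa5: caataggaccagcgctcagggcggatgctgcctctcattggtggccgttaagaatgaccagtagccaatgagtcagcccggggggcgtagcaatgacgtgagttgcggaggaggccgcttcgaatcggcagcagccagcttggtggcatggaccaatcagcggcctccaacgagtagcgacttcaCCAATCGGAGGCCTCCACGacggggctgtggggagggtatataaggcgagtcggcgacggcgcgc
Pdia6: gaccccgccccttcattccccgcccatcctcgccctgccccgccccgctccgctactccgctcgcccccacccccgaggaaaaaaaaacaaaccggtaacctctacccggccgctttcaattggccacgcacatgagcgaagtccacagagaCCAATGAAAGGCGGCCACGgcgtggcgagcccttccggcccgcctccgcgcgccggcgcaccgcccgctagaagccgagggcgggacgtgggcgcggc
A match is a description and no evidence of binding. Of the 8 genes with the element, Ero1b and Hsp90b1 had null arrays below all control arrays, by -0.17 and -0.08, against 4.41% of all genes. Dnajb9 and P4hb were not among the 8. A link between the element and the genotype differences was not tested.

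The translocation and ER export list had the same direction at smaller size. Of 28 measured members 23 had a negative difference, with a median of -0.11. In 7 the null arrays lay below all control arrays, against 4.41% of all genes, and 8 had an unadjusted p under 0.05 in that direction, against 2.44%. This count of 8 was 1 without control replicate 1 and 4 in the fit of the 6 vehicle arrays, and 0 members passed the correction in either. The members with the lowest differences belong to the translocon, its associated complex and the signal peptidase, which trims entering proteins. Sec61b, the translocon β subunit, read 11.79, 11.46 and 11.68 in control and 11.21, 10.92 and 11.26 in null livers, a difference of -0.51 ± 0.182. Spcs2, of the signal peptidase, read 11.12, 10.96 and 10.93 in control and 10.69, 10.41 and 10.53 in null livers, a difference of -0.46 ± 0.141 (interval -0.77 to -0.15). Neither gene had overlapping groups. Ssr4, of the translocon-associated complex, had the largest difference (-0.72 ± 0.240), which was -0.47 without null replicate 1 and -0.10 when probe sets with possible cross-hybridization were left out. Kdelr2, which returns ER proteins from the Golgi, had the most positive difference, 0.23 ± 0.194, with overlapping groups, and it was -0.05 with the mean of its probe sets and 0.06 without null replicate 1.

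N-glycosylation and ER-associated degradation had medians of -0.09 over 23 and 0.03 over 16 genes. Ostc and Rpn2, subunits of the oligosaccharyltransferase, led the first list at -0.79 and -0.61, which became -0.32 with the mean of the gene's probe sets and -0.35 without null replicate 1. Derl3, a channel component of degradation, read 6.25, 6.60 and 6.64 in control and 8.24, 6.87 and 6.74 in null livers. Its groups did not overlap, and the difference of 0.79 ± 0.311 went to 0.31 without null replicate 1.

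Targets of ATF4 and CHOP had a median of 0.04 over 19 genes, and 1 member stood far from the rest. Asns, asparagine synthetase, read 6.04, 6.51 and 5.81 in control and 7.33, 8.02 and 8.88 in null livers. Every null array was above every control array, and the difference was 1.96 ± 0.50 (interval 0.87 to 3.05, limma, adjusted p = 0.988). A second Asns probe set differed by 2.34. Under the alternatives run the gene's value lay between 1.45 and 2.33. In 3 of the 19 members, Asns, Psat1 and Gpt2, the null arrays lay above all control arrays, against 3.75% of all genes. They lay below all control arrays in 0 members. Other members differed less than Asns: Trib3 differed by 0.52 ± 0.206, Chac1 by 0.48 ± 0.399, Psat1 by 0.41 ± 0.221 and Mthfd2 by -0.59 ± 0.486. Without control replicate 1 Chac1 differed by 0.05, and without null replicate 1 Psat1 differed by 0.19. Mthfd2 was -0.96 without control replicate 1, -0.19 without control replicate 3 and -0.36 without null replicate 3. The Trib3 value was -0.08 when probe sets with possible cross-hybridization were left out.

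Transcripts reported elsewhere as substrates of the IRE1 RNase showed no common direction. Of 14 measured, 5 had a positive and 9 a negative difference, with a median of -0.07, and 0 had an unadjusted p under 0.05 by limma. The largest differences were those of Pmp22 (-0.43 ± 0.347) and Ces1g (-0.31 ± 0.277) on the lower side and Cyp1a2 (0.22 ± 0.190) on the higher. Rnase4, a secreted ribonuclease, differed by 0.13 ± 0.114. Without control replicate 3 Pmp22 differed by -0.27, and Ces1g lay between -0.63 (without control replicate 1) and -0.12 (without control replicate 2). Cyp1a2 was 0.12 without control replicate 1 and 0.11 without null replicate 2. The interval lay within 2-fold for 13 of the 14, all but Pmp22, against 90.1% of all genes.

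Cholesterol synthesis had the largest median difference among the function lists, and again no member passed the test. Of 20 measured members 19 had a negative difference in null livers, with a median of -0.56 against 0.00 over all genes. In 10 the null arrays lay below all control arrays, against 4.41% of all genes, and 8 (40%) had an unadjusted p under 0.05 in that direction, against 2.44%. The mean of the 20 members, relative to all 6 arrays, was 0.17, 0.28 and 0.30 in control replicates 1 to 3 and -0.16, -0.53 and -0.06 in null replicates 1 to 3. Null replicate 2 was the lowest, and without it the median was -0.34. With the Gapdh ratio as a covariate the median was -0.73. Among the brightest 5% of genes stood 7 of the 20 in control and 1 in null livers. The lowest level within that 5% was 11.73 in control and 11.72 in null livers, and some members stood close to it. Fdft1 lay just above it in control livers at 11.74, and Sc5d and Ebp just below it in null livers at 11.71 and 11.65.

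The members that led, Fdps, Mvk and Pmvk, belong to the mevalonate branch, which makes the isoprenoid units of sterols. Fdps, farnesyl diphosphate synthase, read 11.34, 10.18 and 10.85 in control and 8.91, 9.66 and 10.12 in null livers. The lowest control reading was just above the highest null one, and the difference was -1.22 ± 0.324 (interval -1.93 to -0.52, limma, adjusted p = 0.988). Mvk, mevalonate kinase, read 7.81, 7.56 and 8.06 in control and 6.89, 6.63 and 7.29 in null livers. Its groups did not overlap, the difference was -0.88 ± 0.185 (interval -1.28 to -0.47), and its second probe set differed by -0.77. Pmvk and Mvd, the next kinase and the decarboxylase, differed by -0.76 ± 0.201 and -0.66 ± 0.235, and Mvd by -0.42 without control replicate 3.

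Later steps lay lower by similar amounts. Sqle, squalene epoxidase, read 11.81, 12.09 and 12.03 in control and 11.63, 10.76 and 11.41 in null livers, a difference of -0.71 ± 0.229 without overlap. Cyp51 (lanosterol demethylase), Msmo1 (a sterol methyl oxidase), Sc5d (lathosterol oxidase) and Dhcr7 (the last reductase) differed by -0.72, -0.73, -0.63 and -0.55. The Msmo1 value was -0.31 with the mean of its probe sets, and the Dhcr7 value -0.27 without null replicate 2. Hmgcs1, the cytosolic HMG-CoA synthase of the earlier mevalonate branch, differed by -0.51 ± 0.299 with overlapping groups. Its difference was -0.24 without null replicate 2 and -0.79 without null replicate 1. Sqle was -0.46 without null replicate 2. Srebf2, the master regulator of the pathway, differed by -0.22 ± 0.184, and Insig1, which retains that regulator in the ER, by 0.36 ± 0.362, both with overlap. With 1 array left out Srebf2 ranged from -0.36 to -0.09, and Insig1 from -0.01 to 0.74.

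**Figure D4:**
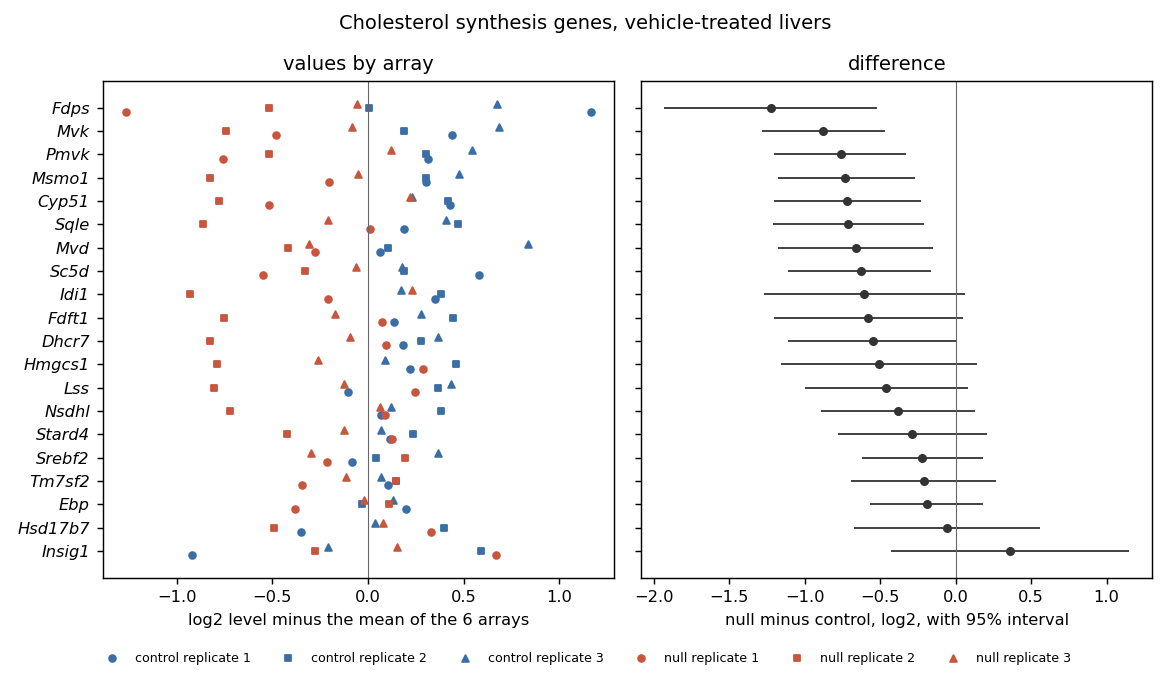
Left, log2 level of 20 cholesterol synthesis genes in each control (blue) and null (red) vehicle liver minus the gene's mean over the 6 arrays; right, the genotype difference with its 95% interval. Blue points lie right of red points for 10 genes, 19 of 20 differences are negative, and the intervals of 8 exclude 0.

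Promoters of the pathway were searched for the sterol regulatory element, which is read by sterol-regulated factors, and for the CCAAT box. Of the 20 genes 16 had an entry in the RefSeq table. All 16 held a CCAAT box, searched as CCAAT on both strands, against 42.2% of all promoters of tested genes. The sterol regulatory element, searched as TCACNCCAC on both strands, was found in 1 of the 16, Hmgcs1, against 1.42%. The CCAAT box also forms the first letters of the ER stress element, which was found in 0 of the 16. The 250 bases before the starts of Hmgcs1 (chr13:119690101-119690350, + strand) and Mvk (chr5:114444019-114444268, + strand) of GRCm38.p6 follow, with both motifs in capitals on either strand. The sterol element of Hmgcs1 begins at position -137 from the start.
Hmgcs1: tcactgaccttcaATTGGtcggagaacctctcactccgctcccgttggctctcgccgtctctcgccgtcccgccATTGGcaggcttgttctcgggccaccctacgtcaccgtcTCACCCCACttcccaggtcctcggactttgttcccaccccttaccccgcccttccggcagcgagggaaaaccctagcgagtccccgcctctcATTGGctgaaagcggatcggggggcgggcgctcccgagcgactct
Mvk: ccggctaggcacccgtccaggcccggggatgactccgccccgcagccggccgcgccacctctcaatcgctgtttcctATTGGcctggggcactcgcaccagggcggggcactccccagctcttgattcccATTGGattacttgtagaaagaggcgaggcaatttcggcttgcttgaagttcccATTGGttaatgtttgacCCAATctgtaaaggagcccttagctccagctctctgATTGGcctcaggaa
Hmgcs1 held 3 CCAAT boxes and Mvk 5, and the letters of the sterol element searched here were not in the Mvk window.

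Other lipid functions differed less. Lipogenesis and triglyceride synthesis had a median of -0.21 over 23 genes, with 5 members in which the null arrays lay below all control arrays, against 4.41% of all genes. Scd1, the stearoyl-CoA desaturase, read 13.36, 13.32 and 13.37 in control and 13.13, 13.26 and 13.06 in null livers, a difference of -0.20 ± 0.121 without overlap. It was -0.61 with the mean of the gene's probe sets. Srebf1, the regulator of fatty acid synthesis, differed by -0.23 ± 0.238, which ranged from -0.42 to -0.09 with 1 array left out. Fatty acid oxidation and ketogenesis had a median of 0.06 over 24 genes and bile acid genes -0.03 over 22. Cyp7a1, the rate-limiting enzyme of bile acid synthesis, differed by 0.15 ± 0.256.

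Secretory products had small measured differences, most with narrow intervals. Many read near the top of the scale: plasma carrier proteins had a median level of 13.21 in control livers, and the highest level of any gene was 13.96. Readings near saturation compress true differences, so these values hold for the measured scale. Alb read 13.65, 13.77 and 13.58 in control and 13.77, 13.70 and 13.76 in null livers, a difference of 0.08 ± 0.118 (interval -0.18 to 0.34). Mttp, which loads lipid onto apolipoprotein B, differed by 0.02 ± 0.187. Apob itself differed by 0.03 ± 0.473, and its interval of -1.0 to 1.06 reached 2-fold, although the paired one-sided limma tests placed it within 2-fold (adjusted p = 0.0341). The medians of plasma carrier proteins, serine protease inhibitors, coagulation and complement lay between -0.03 and -0.01. All 19 coagulation and 17 complement genes, all 43 respiratory chain genes and all 31 ribosomal protein genes had intervals within 2-fold.

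**Figure D5:**
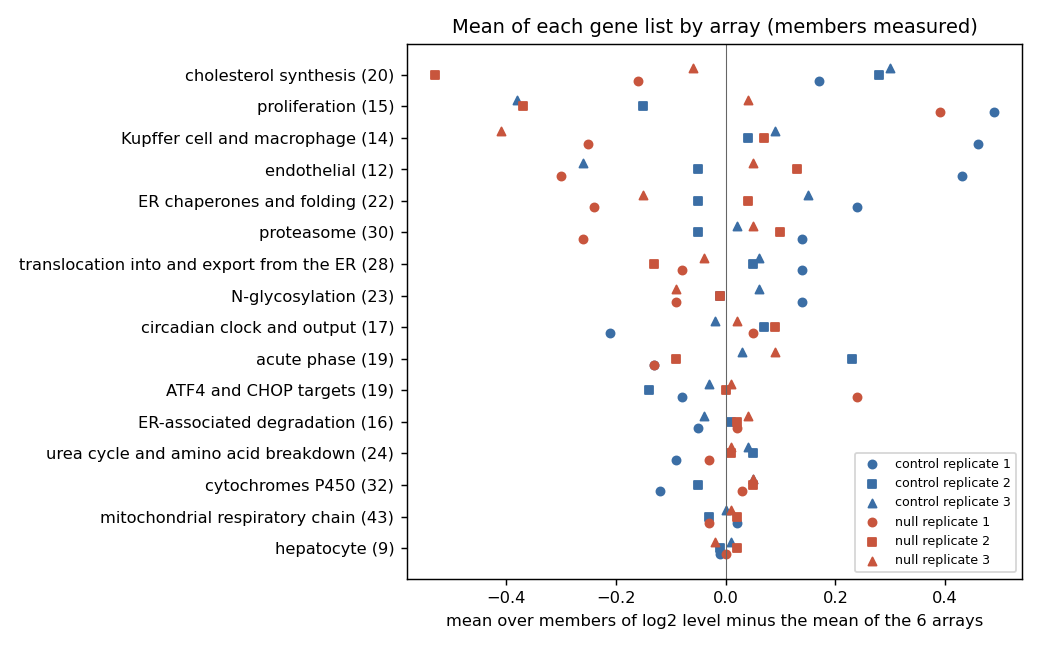
Mean over the measured members (number in brackets) of each of 16 gene lists in each control (blue) and null (red) vehicle liver, relative to the mean of the 6 arrays, log2. The genotypes separate for cholesterol synthesis (control 0.17 to 0.30, null -0.53 to -0.06). At smaller size they also separate for translocation and ER export (0.05 to 0.14, -0.13 to -0.04), ATF4 and CHOP targets (-0.14 to -0.03, 0 to 0.24) and ER-associated degradation (-0.05 to 0.01, 0.02 to 0.04). Proliferation spans -0.38 to 0.49 within the control arrays, and hepatocyte markers stay within 0.04.

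Markers of other liver cells varied between arrays. Of 14 Kupffer cell and macrophage markers 13 lay lower in null livers, with a median of -0.41. Their mean was 0.46, 0.04 and 0.09 in control replicates 1 to 3 and -0.25, 0.07 and -0.41 in null replicates 1 to 3, and only Marco, a scavenger receptor, had groups that did not overlap. Without control replicate 1 the median was -0.21. Of the defining Kupffer cell markers, Clec4f and Timd4 differed by -0.38 ± 0.285 and -0.30 ± 0.229, both with overlap. Clec4f was -0.23 without control replicate 1 and -0.24 without null replicate 3. Endothelial markers had a median of -0.08 over 12 and a mean of 0.43 in control replicate 1, against -0.30 to 0.13 on the other arrays. The part of these cells in the differences of the ER lists was not tested.

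A few single genes stood apart from the rest, without passing the correction in the fit of all arrays. Ctse, which encodes the aspartic protease cathepsin E, read 10.04, 9.65 and 9.85 in control and 7.12, 6.53 and 6.81 in null livers, a gap wider than any spread within a genotype. The difference was -3.03 ± 0.637 (interval -4.42 to -1.64). It was called in the fit of the 6 vehicle arrays alone (limma, adjusted p = 0.00205) and with any 1 of them left out (adjusted p 0.0039 to 0.0213). A second, dimmer Ctse probe set differed by 0.46, and in tunicamycin livers the brighter one read 6.61, 8.68 and 9.04 in control and 6.49, 7.10 and 8.98 in null mice.

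Meg3, an imprinted long noncoding RNA, read 7.45, 8.87 and 7.97 in control and 11.18, 9.92 and 9.99 in null livers. Every null array was above every control array, and the difference was 2.27 ± 0.499 (interval 1.18 to 3.36). Of its 11 probe sets 5 differed by 1.66 to 2.33 and the other 6 by -0.14 to 0.51. Cyp4a12a, a cytochrome P450 that is abundant in male mouse liver, read 4.93, 4.83 and 7.72 in control and 8.81, 7.91 and 10.18 in null livers. Its groups did not overlap, and the difference of 3.14 ± 0.965 was called only with the replicate block (limma, adjusted p = 0.0243). Abhd1, an abhydrolase, differed by 2.08 and reached adjusted p = 0.05 with limma when null replicate 1 was left out.

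The other genes with the 10 smallest p values had smaller differences. C730036E19Rik, Susd4, Nos1ap, Zfp40, Phf6 and 4930563E18Rik lay higher in all null arrays, by 1.26, 1.09, 1.12, 0.98, 0.97 and 0.77, and Prima1 lay lower, by -0.99. The remaining 3 of the 10 were Ctse, Meg3 and Mvk. For Phf6 the 2 other probe sets differed by -0.88 and 0.07, so its probe sets disagreed in sign. Zfp40, Prima1 and 4930563E18Rik were dim, and their values were 0.50, -0.46 and 0.31 with a pseudocount of 64. With a pseudocount of 1 the last was 1.51.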

How the data were processed

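Liver RNA was extracted with Trizol and hybridised to Affymetrix mouse expression arrays, per the labels' protocols. The deposited values are intensities of 45101 probe sets on a linear scale. No source used here gives the summarisation method, the scaling or any filter behind them. Platform annotation gave 34945 probe sets 1 gene symbol, 932 several and 9160 none, and 64 control probe sets were left out.

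From the intensities deposited by the authors, log2(intensity + 16) was computed and quantile normalized over all 12 arrays. The dimmest 30% of probe sets were removed and the brightest probe set of each gene was kept, which left 14568 genes. A limma fit over all 12 arrays (limma 3.58.1 in R 4.3.3) gave the null minus control contrast of vehicle livers, with Benjamini-Hochberg adjustment at 0.05. The fit was tested on simulated data. The number of arrays limits the precision, and the p-values measure only the spread between these samples.

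The members and gene lists were chosen with earlier results of these data known. Named genes were Ern1, 10 anchor genes, the 10 smallest p values, the largest and smallest spreads, the 10 brightest genes, the brightest, most different and most variable members of each list, sex-linked transcripts, and genes that a left-out array moved across the threshold. Any other gene named was chosen after its values were seen. Replicate numbers did not pair the samples: deviations of same-numbered control and null arrays correlated at -0.211, -0.41 and -0.11. Alternatives covered the pseudocount, filter, normalization, probe set rule, variance model, arrays in the fit, replicate block, RNA quality ratios and arrays left out.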

Additional observations from a re-analysis of the deposited data

How the results depend on the processing

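No gene was called by limma in the fit of all 12 arrays (597 at an unadjusted p under 0.05), and 1 (Ctse) was called when only the 6 vehicle arrays were fitted, with or without their own quantile normalization. With 1 array left out of the full fit, 0 to 1 genes were called, the 1 being Abhd1 without null replicate 1. In fits of vehicle arrays alone with 1 left out, chosen after seeing the data, 1 to 2 were called. Replicate numbers are shared between the genotypes but did not pair the samples. The replicate block called 1 gene, Cyp4a12a, which made 1 called list member against 0, and left Ern1 at -0.13.

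The median half-width of 0.430 was 0.315 with a pseudocount of 64, 0.506 with 1 and 0.404 to 0.489 with arrays left out. Genes within 2-fold numbered 23230 with every probe set on its own (25813 tested), 12096 with a pseudocount of 1 (14561 tested) and 12748 to 13928 with arrays left out. With an array left out, median SDs ranged from 0.173 to 0.221 in control and 0.160 to 0.212 in null livers, and over the other alternatives from 0.161 to 0.255 and 0.154 to 0.244. Ern1 ranged from -0.30 to 0.02 with arrays left out, the last without control replicate 1, and was -0.31 with the actin ratio. With arrays left out, the genotype differences of the 5' to 3' ratios ranged from -0.292 to -0.0335 for Gapdh and -0.408 to -0.0869 for actin. Function lists held 65.5% and 68.3% of the brightest 1% of genes in control and null livers, and 27.5% and 27.1% of the brightest 10%. The median of cholesterol synthesis ranged from -0.73 to -0.34.

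Of 1724 values of 75 named genes under the alternatives, 1691 kept direction and call, 10 passed the threshold and 23 changed sign. The sign changes were these, and the cause was not tested. With arrays left out, Apob ranged from -0.26 to 0.28, Mttp from -0.03 to 0.05, Cyp7a1 from -0.06 to 0.43, Insig1 from -0.01 to 0.74, Cyp2c39 from -0.13 to 2.0, Ltf from -0.01 to 0.25 and Mt2 from -0.14 to 0.91. The negative values were found for Apob without control replicate 1 (-0.02) or null replicate 2, for Mttp without control replicate 3 or null replicate 3 (-0.02), for Cyp7a1 without the same arrays (-0.03 for the last), and for the others without control replicate 1. Apob was -0.02 with centred medians, -0.04 as deposited and -0.33 in the fit that held the actin ratio. Mttp was -0.03, -0.05 and -0.05 in these, and -0.18 with the mean of probe sets. Cyp7a1 was -0.24 with that mean and -0.11 with the actin ratio, and Kdelr2 -0.05 with that mean. Insig1 was -0.04 with the Gapdh ratio, and Trib3 -0.08 without cross-hybridizing probe sets.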

Other observations

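Several transcripts outside the ER lists read low in control replicate 1 alone, and they were chosen after their values were seen. Mt2, a metallothionein that binds zinc and copper, read 10.98 there and 12.81 to 13.08 on the other 5 arrays. The clock gene Per1 read 7.39 against 9.34 to 9.92, and its genotype difference of 0.92 ± 0.436 was 0.24 without that array. Lpin1, a phosphatidate phosphatase, read 10.42 against 11.96 to 12.40, and its difference of 0.66 ± 0.371 was 0.09 without that array. Plin4, a lipid droplet coat protein, read 6.51 against 7.44 to 8.76, and its difference of 0.99 ± 0.387 was 0.53 without that array. None of these 4 genes was called by limma, and the cause was not tested.

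Apom, which encodes an apolipoprotein of high-density lipoprotein, read 10.45 in null replicate 1 and 12.26 to 12.86 on the other arrays. Its difference of -0.78 ± 0.421 was -0.14 without that array. Afp, the fetal counterpart of albumin, read 6.24, 6.36 and 5.88 in control and 7.81, 6.61 and 7.12 in null livers, a difference of 1.02 ± 0.305 without overlap that was not called. Of 12 listed neutrophil and monocyte markers 4 were measured, with a median of -0.53. Over the alternatives, which measured 2 to 9 of them, the median ran from -0.72 to 0.09. In S100a8 and S100a9 the null arrays lay below all control arrays, against 4.41% of all genes. Their differences were -0.71 ± 0.343 and -1.28 ± 0.548, which were -0.43 and -0.84 without control replicate 1. Ccr2 and Ltf differed by -0.36 and 0.10 with overlap, and Ccr2 by -0.09 without null replicate 1.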
